A study of Mus musculus with 55 samples.

Results

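The Fc gamma receptors of BBN963 tumours were followed as 6 genes, each found by its symbol in both normalized count tables, out of 47606 rows in each table. They are the activating receptors Fcgr1, Fcgr3 and Fcgr4, their shared signalling chain Fcer1g, the inhibitory receptor Fcgr2b, and Fcgrt, the neonatal Fc receptor. All 6 passed the filter on low values in both tables. BBN963 is a mouse bladder cancer line, and its tumours were grown under the skin of C57BL/6 mice, called B6 here, or of NSG mice, a strain of NOD background that lacks mature T, B and NK cells but keeps macrophages and neutrophils. In each host there was a baseline group, a vehicle group, whose sample titles call it not treated, and a group given entinostat, which inhibits the class I histone deacetylases and was fed in chow to B6 mice. RNA was read in 4 baseline, 6 vehicle and 5 entinostat tumours of B6 mice, and in 5, 5 and 5 of NSG mice. A sixth B6 entinostat tumour is labelled but has no values among the B6 normalized counts, so it was not analysed here. For B6 mice the labels give randomization at 200 mm3, a dose of 12 mg/kg, and collection of entinostat tumours at 100 mm3. They give no collection volume for vehicle and baseline tumours and neither dose nor volume for NSG mice, so in B6 mice treatment and tumour size cannot be told apart. The ages of the mice are not given in the sources used here, nor is whether each tumour came from its own animal, so p-values measure the spread between tumours.

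Fc gamma receptors bind the constant part of IgG on antibody-coated cells and particles. The activating receptors have no signalling motif of their own and pair with the Fcer1g chain, whose ITAM (an activating tyrosine motif) recruits the kinase Syk and leads to phagocytosis, oxidative burst and killing of coated cells. Fcgr2b carries an ITIM, an inhibitory motif that recruits the phosphatase encoded by Inpp5d and sets a threshold against activation. Macrophages and monocytes hold both kinds, neutrophils hold Fcgr3 and Fcgr4, NK cells hold Fcgr3, and B cells hold Fcgr2b alone. Fcgrt is not a receptor of this signalling class: it pairs with beta 2 microglobulin, protects IgG from breakdown inside cells, and is found in endothelium as well as in myeloid cells.

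In the RefSeq annotation of GRCm38.p6, the assembly of the mm10 build, all 6 are protein-coding genes. Fcgr2b (chromosome 1, 170960558 to 170976071), Fcgr4 (171018926 to 171029761), Fcgr3 (171051169 to 171065915) and Fcer1g (171229572 to 171234349) lie on chromosome 1 in that order. Fcgr1 lies on chromosome 3 (96282909 to 96293969) and Fcgrt on chromosome 7 (45092993 to 45103822). The 250 bases before the annotated start are shown for the 3 activating receptors and for Fcgr2b, whose levels moved together in B6 tumours. Sequences are from RefSeq, GRCm38.p6, written 5′ to 3′ on the gene's strand. Capitals mark matches, on either strand, to GAGGAA, the core bound by the myeloid factor PU.1 (read as TTCCTC on the other strand), or to TTCNNNGAA, the palindrome bound by STAT factors.
Fcgr1, chr3:96293970-96294219, minus strand: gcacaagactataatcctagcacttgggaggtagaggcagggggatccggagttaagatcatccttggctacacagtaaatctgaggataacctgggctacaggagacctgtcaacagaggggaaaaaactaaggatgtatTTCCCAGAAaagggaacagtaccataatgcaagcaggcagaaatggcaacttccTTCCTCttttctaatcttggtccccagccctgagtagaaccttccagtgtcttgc
Fcgr3, chr1:171059404-171059653, minus strand: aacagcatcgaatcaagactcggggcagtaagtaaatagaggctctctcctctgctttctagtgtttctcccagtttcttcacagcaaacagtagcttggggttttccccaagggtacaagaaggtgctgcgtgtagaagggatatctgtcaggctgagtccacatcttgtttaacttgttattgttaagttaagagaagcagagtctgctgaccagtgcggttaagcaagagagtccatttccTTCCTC
Fcgr4, chr1:171018676-171018925, plus strand: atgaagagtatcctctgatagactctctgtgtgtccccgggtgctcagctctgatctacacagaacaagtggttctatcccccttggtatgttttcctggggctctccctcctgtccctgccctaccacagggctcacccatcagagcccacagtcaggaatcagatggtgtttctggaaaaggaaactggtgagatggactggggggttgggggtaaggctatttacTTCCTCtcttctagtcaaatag
Fcgr2b, chr1:170976072-170976321, minus strand: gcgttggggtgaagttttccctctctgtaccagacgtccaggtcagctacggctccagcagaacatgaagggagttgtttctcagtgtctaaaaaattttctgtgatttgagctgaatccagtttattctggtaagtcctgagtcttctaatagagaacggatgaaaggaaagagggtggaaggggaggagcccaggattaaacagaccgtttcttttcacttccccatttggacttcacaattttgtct
The Fcgr1 window held 1 match to each motif, TTCCTC starting 55 bases and TTCCCAGAA starting 109 bases before the gene's start. The Fcgr3 and Fcgr4 windows held 1 TTCCTC each, starting 6 and 22 bases before the start. The Fcgr3 window lies within the span of the gene given above, before the start that the promoter table uses. A second RefSeq start of Fcgr3 holds the same TTCCTC, starting 15 bases before it. The windows of Fcgr2b, Fcer1g and Fcgrt held neither motif. Of all 32851 promoter windows of 250 bases in the table, 23.3% held GAGGAA on either strand and 7.02% held TTCNNNGAA. A match is a description of letters and not a measured binding site.

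All values are DESeq2-normalized counts per gene, deposited as 1 table per host, and a fold change is on the log2(value + 1) scale. A gene was called where limma's adjusted p was under 0.05. Summed signal, in units of 1e6 normalized counts, was 21.23 to 33.35 per B6 library and 28.24 to 37.25 per NSG library. Read depth could not be recovered, since in the 30 libraries only 38.7 to 79% of low values lay within 0.05 of a whole number of steps, taking the smallest common value as 1 step. Gene lengths were not part of these values, so levels of different genes were compared only as ratios that change between tumours. Fcgr2b and Fcgr3 have nearly identical extracellular parts, and how reads shared by both were counted is not given in the sources used here, so the split between them is uncertain.

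In B6 mice, which have intact immunity, all 6 genes were higher in entinostat than in vehicle tumours, against a background of 29.9% of 17053 tested genes called higher and 26.2% called lower. The activating receptors were 17- to 20.4-fold higher and inhibitory Fcgr2b 14-fold higher, so both arms rose together. The median log2 fold change of the 6 was 4.02, beside -0.0125 over all tested genes. In each of the 6 genes every entinostat tumour lay above every vehicle and baseline tumour. The share of all tested genes that separate in this way was not counted, so this is a description of the values. With libraries set to equal summed signal, which moved the median of all genes to -0.334, 3846 genes were called higher and 6394 lower, against 5093 and 4460, and all 6 members were still called higher.

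Fcgr1 (ENSMUSG00000015947) encodes the high-affinity IgG receptor. Its normalized counts were 4226, 3467, 4200, 3463 and 3931 in B6 entinostat tumours 411, 413, 418, 421 and 423. In B6 vehicle tumours they ran from 71.52 to 1018 with a median of 153.2, and baseline tumours 415, 416, 419 and 426 held 335.5, 427.8, 526.5 and 83.27. The entinostat tumours were thus close together (3857 ± 376.7, SD, n = 5), while vehicle tumours were spread 14.2-fold between the lowest and the highest (328 ± 370.4, SD, n = 6). Fcgr1 rose by 4.23 on the log2 scale over vehicle (SE 0.618, adjusted p = 5.11e-05).

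Fcgr3 (ENSMUSG00000059498), the low-affinity activating receptor of macrophages, neutrophils and NK cells, had the largest fold of the 6. Its normalized counts were 22380, 19860, 17580, 17470 and 19190 in the 5 entinostat tumours in the same order. Vehicle tumours ran from 314.1 to 3629 with a median of 981.9, and the baseline tumours held 1369, 2109, 1273 and 303.5. The lowest entinostat tumour, 421, was still above the highest vehicle tumour, 402. Vehicle tumours averaged 1328 ± 1233 (SD, n = 6) and entinostat tumours 19300 ± 2007 (SD, n = 5), which is 4.35 higher on the log2 scale (SE 0.574, adjusted p = 2.04e-05).

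Fcgr4 (ENSMUSG00000059089), a receptor for IgG2a and IgG2b, was 3602, 5108, 8060, 4690 and 3875 in the entinostat tumours, with tumour 418 highest. Vehicle tumours ran from 113.6 to 982 with a median of 231.2, and baseline tumours held 495.7, 668.5, 782.7 and 129.7. The gap between groups was wide, but Fcgr4 varied more among entinostat tumours than Fcgr1 or Fcgr3 did (coefficient of variation 35.1% against 9.77% and 10.4%). Its log2 fold change over vehicle was 4.09 (SE 0.518, adjusted p = 1.42e-05).

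Fcer1g (ENSMUSG00000058715), the ITAM chain that the activating receptors need at the cell surface, was 13640, 15080, 13120, 20040 and 12500 in entinostat tumours. It ran from 324.4 to 3146 in vehicle tumours, with a median of 798.1, and was 1488, 1985, 1842 and 487.2 in baseline tumours. Tumour 421 held the highest Fcer1g of the entinostat group but the lowest sum of the 3 activating receptors, 25620. Fcer1g rose by 3.94 on the log2 scale over vehicle (SE 0.49, adjusted p = 1.2e-05).

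Inhibitory Fcgr2b (ENSMUSG00000026656) was 17280, 16330, 17170, 17050 and 17400 in the entinostat tumours. These 5 values were the closest together of any member in any group, with a coefficient of variation of 2.49%. Vehicle tumours ran from 346.6 to 4718 with a median of 942.2, and baseline tumours held 2018, 2849, 1458 and 488.8. The group means were 1713 ± 1627 (SD, n = 6) with vehicle and 17050 ± 423.7 (SD, n = 5) with entinostat, and the log2 fold change was 3.81 (SE 0.55, adjusted p = 4.49e-05).

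Fcgrt (ENSMUSG00000003420) varied most of the 6 within each B6 group. Entinostat tumours held 4385, 4629, 7065, 8744 and 3327 normalized counts, vehicle tumours ran from 52.58 to 2531 with a median of 312.8, and baseline tumours held 1336, 1409, 291.9 and 140.5. The highest vehicle tumour was 48.1 times the lowest. Its log2 fold change over vehicle was 3.60 (SE 0.878, adjusted p = 0.00283), the smallest of the 6. B2m, which encodes its partner chain, did not pass the test (log2 fold change 0.33, adjusted p = 0.192).

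**Figure D1:**
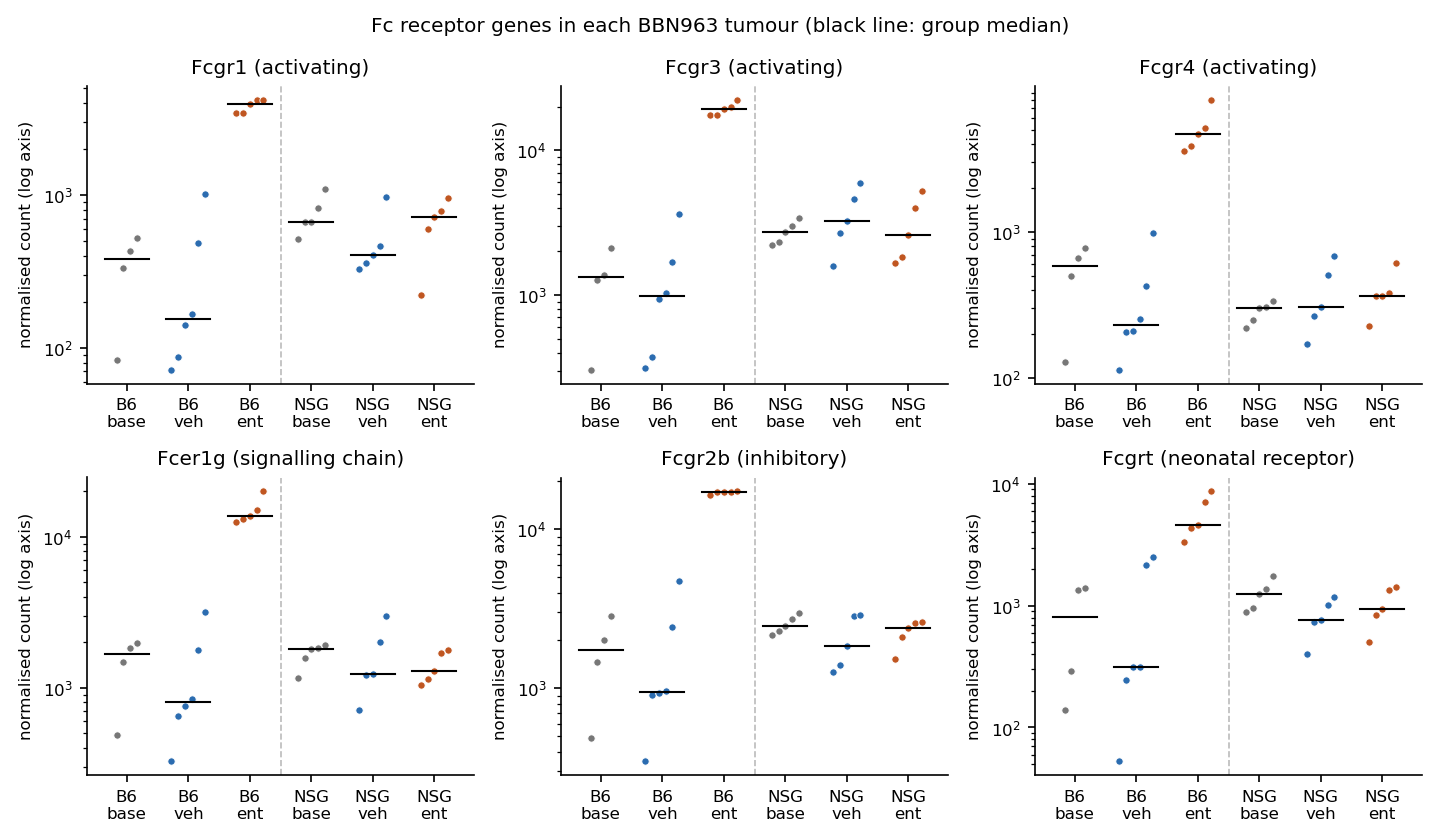
Normalised counts of the 6 genes on a log axis, 1 point per tumour, for baseline (base), vehicle (veh) and entinostat (ent) groups of B6 mice (left of the dashed line) and NSG mice (right), with black lines at group medians. B6 entinostat tumours stand above all other B6 tumours in every panel, while the 3 NSG groups overlap. The share of all tested genes that separate in this way was not counted. The 2 hosts were normalized separately.

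Among B6 vehicle tumours, tumour 402 held the highest value of all 6 genes and tumour 410 the next. Tumour 402 was also highest in the mean log2 of 10 macrophage and monocyte markers, at 11.34 against 7.559 to 10.22 in the other 5. Leaving out each library in turn kept every call of the 6 genes, with the log2 fold change of Fcgr1 over vehicle between 3.93 and 4.69 and that of Fcgr3 between 4.03 and 4.74.

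Against baseline tumours the picture was alike. All 6 genes were higher in B6 entinostat tumours, where 29.1% of tested genes were called higher and 25.3% lower. Log2 fold changes ran from 3.33 for Fcgrt (SE 0.972, adjusted p = 0.00952) to 4.22 for Fcgr3 (SE 0.636, adjusted p = 8.11e-05). This comparison shares its entinostat tumours with the one against vehicle, so the pair is not independent. Between B6 vehicle and baseline tumours limma called 0 of the 6 genes and 0% of all tested genes, with 749 of 17053 genes at an unadjusted p under 0.05. Fcgrt had the widest of the 6 intervals there, -2.27 to 1.72 (95%) around a log2 difference of -0.27.

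In NSG hosts none of the 6 genes was called for entinostat. Between entinostat and vehicle tumours limma called 0 of 6 members and 0% of 17752 tested genes, with 1287 genes at an unadjusted p under 0.05 and a smallest adjusted p of 0.168. Log2 differences of the members ran from -0.24 for Fcgr3 to 0.35 for Fcgr1. The upper 95% bound was 1.11 for Fcgr1, 0.49 for Fcgr3, 0.80 for Fcgr4 and 0.67 for Fcgr2b, each below the lower bound of the same gene in B6 hosts, which was 2.91, 3.13, 2.99 and 2.64.

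Fcgr1 in NSG tumours was 668.5, 668.1, 822.1, 1089 and 517.8 at baseline (tumours NSG_Baseline_303, NSG_Baseline_304, NSG_Baseline_305, NSG_Baseline_316 and NSG_Baseline_320). It was 465.7, 356.4, 964.3, 408.2 and 328.4 in vehicle tumours NSG_Non-Treatment_302, NSG_Non-Treatment_308, NSG_Non-Treatment_311, NSG_Non-Treatment_323 and NSG_Non-Treatment_326, and 717.1, 222.6, 598, 952.5 and 786.6 in entinostat tumours NSG_Entinostat_306, NSG_Entinostat_312, NSG_Entinostat_315, NSG_Entinostat_319 and NSG_Entinostat_327. The 3 groups overlapped, and NSG_Non-Treatment_311 stood above the other 4 vehicle tumours.

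The summed counts of the 8 NK cell markers were 160.2 to 431.4 in NSG tumours, where 2 of the 8, Eomes and Klra8, passed the filter on low values. Fcgr3, in the same order of tumours, was 2341, 2718, 2981, 3422 and 2211 at baseline. It was 4635, 1586, 5921, 3251 and 2665 in vehicle tumours and 3974, 1672, 2614, 5255 and 1818 in entinostat tumours. Its coefficient of variation was 49.8% with entinostat, 47% with vehicle and 17.9% at baseline.

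Fcgr4 in NSG tumours was 220.3, 306.1, 302.4, 337.1 and 250.5 at baseline, 511.4, 170.4, 683.5, 304.7 and 267.7 with vehicle, and 383.4, 227.3, 366.7, 609.6 and 363.8 with entinostat. Fcgr2b was 2463, 2154, 2963, 2726 and 2293 at baseline. Fcgr2b was 2887, 1271, 2861, 1836 and 1408 with vehicle and 2580, 1526, 2402, 2100 and 2615 with entinostat. NSG_Non-Treatment_302 and NSG_Non-Treatment_311 were the highest 2 of the vehicle group for Fcgr3, Fcgr4 and Fcgr2b. Fcer1g ran from 710.9 to 2972 and Fcgrt from 399 to 1768 over the 15 NSG tumours.

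Against NSG baseline tumours, limma called 0 of the 6 genes with entinostat, where 0.406% of tested genes were called in either direction. Between NSG vehicle and baseline tumours it also called 0 of the 6, where 7.53% of genes were called higher and 5.5% lower. The member nearest to a call was Fcgrt, with a log2 difference of -0.66 (SE 0.31, adjusted p = 0.151). The number of genes called in this comparison rests on single tumours: 13% were called with all tumours, 0% without NSG_Baseline_303, 0.242% without NSG_Baseline_305, 0.248% without NSG_Non-Treatment_326, 1.74% without NSG_Non-Treatment_323, 4.55% without NSG_Baseline_320 and 8.4% without NSG_Non-Treatment_311.

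**Figure D2:**
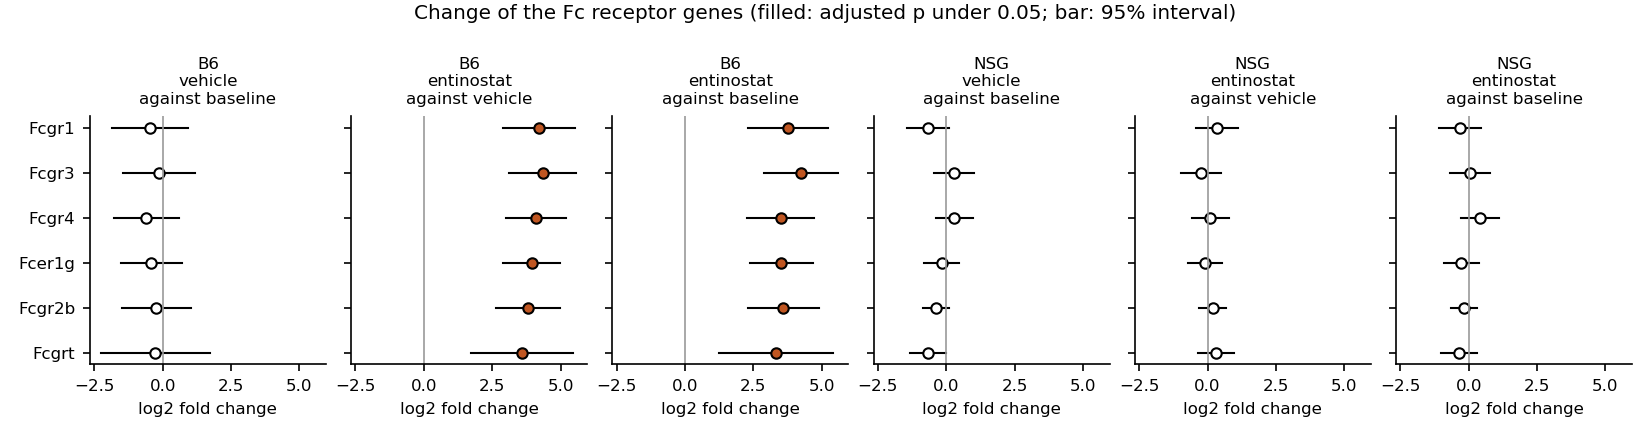
Log2 fold change of each gene in 6 comparisons, with 95% intervals from limma; filled points passed an adjusted p of 0.05. Both B6 entinostat comparisons lie between 3.33 and 4.35 for all 6 genes, and no NSG comparison passed.

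The difference between the hosts was tested itself, as the B6 response minus the NSG response in 1 fit of both tables. All 6 genes had a larger response in B6 hosts, where 23.5% of 18470 tested genes had a higher and 17.8% a lower response in B6. The differences were 4.59 for Fcgr3 (SE 0.71, adjusted p = 1.18e-05), 4.03 for Fcer1g (SE 0.605, adjusted p = 7.73e-06), 3.98 for Fcgr4 (SE 0.643, adjusted p = 2.04e-05) and 3.88 for Fcgr1 (SE 0.758, adjusted p = 0.000206). Inhibitory Fcgr2b differed by 3.62 (SE 0.63, adjusted p = 5.25e-05) and Fcgrt by 3.29 (SE 0.993, adjusted p = 0.00939). For vehicle against baseline the same test of the hosts called 0 of 6 members and 0.0108% of genes, with 2931 of 18470 genes at an unadjusted p under 0.05. The hosts differ in strain, immune cells and table, and these cannot be told apart. Whether dose or tumour size also differed is unknown, since the labels give neither for NSG mice.

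Activating against inhibitory receptors was read as ratios within a tumour, in which any scaling of a library drops out. The summed activating receptors over Fcgr2b were 1.75, 1.74, 1.74, 1.5 and 1.55 in B6 entinostat tumours 411, 413, 418, 421 and 423. In B6 vehicle tumours the ratio ran from 0.788 to 1.44 with a median of 1.3. Baseline tumours 415, 416, 419 and 426 held 1.09, 1.13, 1.77 and 1.06. Every entinostat tumour was above every vehicle tumour, while baseline tumour 419 was as high as the entinostat group. How many other genes separate in this way relative to Fcgr2b was not counted, so this is a description of the values.

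The ratio of Fcgr3 alone moved the same way. Fcgr3 is the activating receptor with the most counts and so the largest part of that sum, and its ratio is not independent of it. The log2 ratio of Fcgr3 to Fcgr2b was 0.373, 0.282, 0.034, 0.0347 and 0.141 in B6 entinostat tumours. It was -0.56, -0.434, -0.195 and -0.686 at baseline, with no overlap. The share of all genes whose ratio to Fcgr2b separates in this way was not counted. With vehicle the log2 ratio of Fcgr3 ran from -1.27 to 0.103 with a median of -0.26. Tumour 408 overlapped the entinostat group and tumour 424 was lowest. The mean difference of this log2 ratio was 0.54 over vehicle (1.45-fold, exact two-sided permutation p = 0.026) and 0.64 over baseline (1.56-fold, exact two-sided permutation p = 0.00794, the smallest that 5 against 4 tumours allow). After Benjamini-Hochberg adjustment over the 30 ratio comparisons both had p = 0.156 by the exact permutation test, so neither passed. Without tumour 424 the difference over vehicle was 0.36 (exact permutation p = 0.0317). Over all omissions of 1 tumour its exact permutation p ran from 0.00794 to 0.0667, highest without tumour 411.

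The other ratios changed less in B6 tumours. Fcgr1 over Fcgr2b was 0.42 higher on the log2 scale with entinostat than with vehicle (exact permutation p = 0.039, adjusted p = 0.195), Fcgr4 over Fcgr2b 0.28 higher (exact permutation p = 0.284) and Fcer1g over Fcgr2b 0.13 higher (exact permutation p = 0.413). Fcgrt over Fcgr2b had a difference of -0.21 (exact permutation p = 0.641). Single tumours moved these values: Fcgr1 was 0.26 without tumour 424 (exact permutation p = 0.0476), and its p ran from 0.0159 to 0.119, highest without 411 or 418. Fcgr4 was 0.099 without tumour 418, Fcer1g 0.016 without tumour 421, and Fcgrt ran from -0.46 without tumour 405 to 0.046 without tumour 410. The rise over vehicle was thus common to all 6, from 3.60 for Fcgrt to 4.35 for Fcgr3 on the log2 scale. In the limma fit of all genes relative to Fcgr2b, 0 of 5 members were called over vehicle, where 86.8% of genes were called in either direction, 0 of 5 over baseline, where 83.4% were called, and 0 of 5 between vehicle and baseline, where 0% were called and 181 genes had an unadjusted p under 0.05. Over vehicle 14644 genes were called lower and 163 higher, and over baseline 14071 lower and 144 higher. Both shares follow from the rise of Fcgr2b itself and are no yardstick for the members. The interval for Fcgr3 relative to Fcgr2b over vehicle was -0.56 to 1.64; that fit takes its spread from all genes and could not show a shift of the size seen.

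In NSG tumours the ratios were compared the same way. The log2 ratio of Fcgr3 to Fcgr2b was -0.0734, 0.335, 0.00836, 0.328 and -0.0525 at baseline and 0.683, 0.32, 1.05, 0.824 and 0.921 with vehicle. NSG_Non-Treatment_308 fell among the highest baseline tumours, and the other 4 stood above all of them. The mean difference was 0.65 (1.57-fold, exact permutation p = 0.0238). Fcgr4 over Fcgr2b was 0.67 higher with vehicle (1.59-fold, exact permutation p = 0.0159) and 0.59 higher with entinostat than at baseline (1.51-fold, exact permutation p = 0.0159), and all 3 had an adjusted p of 0.156 over the 30 comparisons.

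With entinostat the NSG ratio of Fcgr3 to Fcgr2b was 0.623, 0.132, 0.122, 1.32 and -0.524, wider than in any other group. NSG_Entinostat_319 held the highest and NSG_Entinostat_327 the lowest value of all NSG tumours. The difference to vehicle was -0.42 (exact permutation p = 0.254), and -0.67 without NSG_Entinostat_319 (exact permutation p = 0.0317). On leaving out each tumour in turn it ran from -0.67 to -0.21, with exact permutation p up to 0.492. The sum of activating receptors over Fcgr2b ran from 1.3 to 1.78 at baseline, 1.66 to 2.65 with vehicle and 1.14 to 3.25 with entinostat. In the limma fit relative to Fcgr2b, 0 of 5 members were called in NSG mice over vehicle (0% of genes called, 638 at an unadjusted p under 0.05), with entinostat over baseline (0.513% called) or with vehicle over baseline (7.85% called). The response of Fcgr3 relative to Fcgr2b differed between hosts by 0.96 (SE 0.564, limma adjusted p = 0.11). In that test 0 of 5 members were called, where 83.3% of genes were, 15277 lower and 105 higher. This share follows from the larger response of Fcgr2b itself in B6 hosts. Without NSG_Entinostat_319 the difference of Fcgr3 was 1.21 (limma adjusted p = 0.0467). The other 20 omissions of 1 library left it uncalled, with values down to 0.75 and limma adjusted p up to 0.23.

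**Figure D3:**
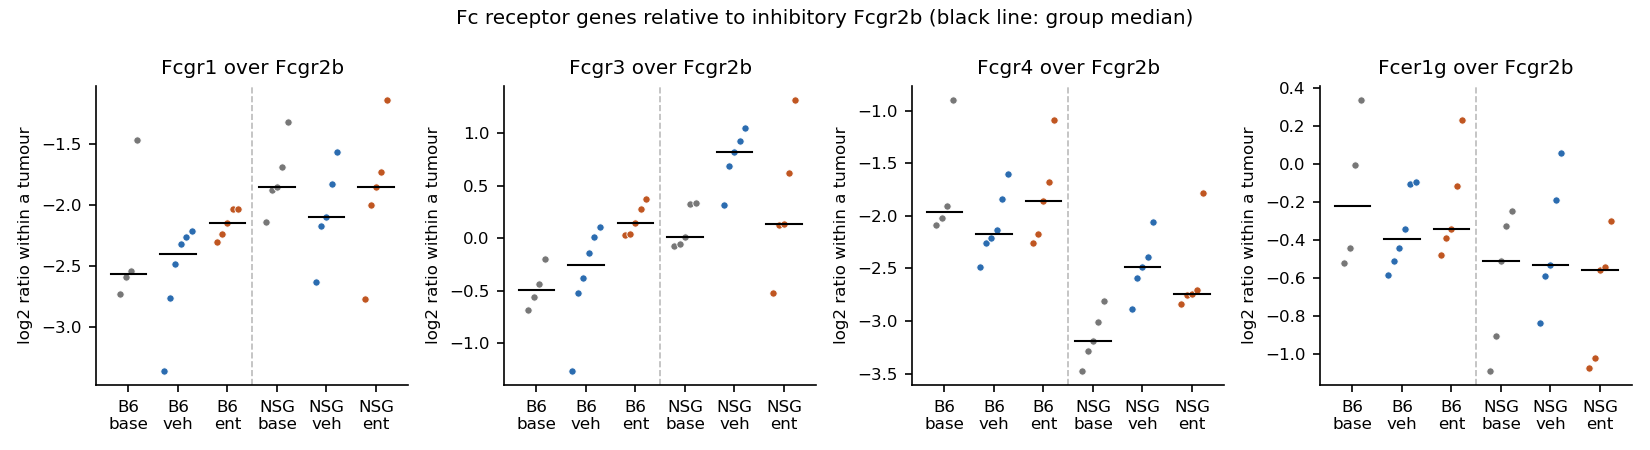
Log2 ratio of Fcgr1, Fcgr3, Fcgr4 and Fcer1g to inhibitory Fcgr2b within each tumour, by host and group, with black lines at medians. The ratio of Fcgr3 is above 0 in all 5 B6 entinostat tumours and in all 5 NSG vehicle tumours, and that of Fcgr4 is lower in NSG than in B6 baseline tumours. The share of all genes whose ratio separates the hosts in this way was not counted.

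The make-up of the set also differed between hosts before treatment. At baseline the log2 ratio of Fcgr4 to Fcgr2b was -2.02, -2.09, -0.896 and -1.91 in B6 tumours and -3.48, -2.81, -3.29, -3.01 and -3.19 in NSG tumours, with no overlap. The share of all genes whose ratio to Fcgr2b separates the hosts in this way was not counted. The difference was not tested and is a description of the values. Fcgr4 made 13.8 ± 3.83% (SD, n = 4) of the summed counts of the 4 Fc gamma receptors in B6 baseline tumours and 4.52 ± 0.51% (SD, n = 5) in NSG baseline tumours. Fcgr3 went the other way, with 32.2 ± 1.94% (SD, n = 4) and 43.4 ± 2.34% (SD, n = 5). These shares are of counts that no length corrects, so they compare hosts and not genes. NOD mice, the background of NSG, are known to carry their own alleles of Fcgr1 and Fcgr2b, and allele, read mapping and cells cannot be told apart in these values.

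Macrophage and monocyte markers moved with the Fc receptors. In B6 entinostat against vehicle all 10 markers of this list rose (median 4.17 on the log2 scale), among them Cd68 at 4.60, Adgre1 at 4.67, Csf1r at 3.37 and Lyz2 at 6.50. Their summed counts were 311400 to 969100 in B6 entinostat tumours, against 5527 to 63520 with vehicle and 7631 to 28100 at baseline, and no marker was at 0. In bulk tumours, more macrophages and more receptor RNA per macrophage cannot be told apart. Set against the mean log2 of these 10 markers within a tumour, 0 of 6 genes were called in B6 mice over vehicle (88.2% of genes called), over baseline (85.3%) or between vehicle and baseline (0%, with 182 genes at an unadjusted p under 0.05). Over vehicle 14927 genes were called lower and 113 higher, with the median gene at -4.06. Over baseline 14442 were lower and 101 higher. Both shares follow from the rise of the markers themselves and are no yardstick for the members. The values over vehicle lay between -0.45 for Fcgrt (95% interval -1.66 to 0.76) and 0.30 for Fcgr3 (95% interval -0.78 to 1.39). That fit takes its spread from all genes and could not show shifts of this size.

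The link to the markers also held among the 10 untreated B6 tumours, as a description. The Pearson correlation of log2 values with the marker mean was 0.987 for Fcgr2b (Spearman 1) and 0.965 for Fcgr3 (Spearman 0.988), and lowest for Fcgr4 at 0.903 (Spearman 0.867). Without the 2 tumours farthest from the median of the marker mean these were 0.975, 0.945 and 0.823. Over the 15 NSG tumours it was 0.917 for Fcgrt (Spearman 0.879), 0.848 for Fcgr2b (Spearman 0.718), 0.721 for Fcgr1 (Spearman 0.8), 0.636 for Fcer1g (Spearman 0.461), 0.509 for Fcgr4 (Spearman 0.404) and 0.385 for Fcgr3 (Spearman 0.329). Without the 2 farthest tumours these were 0.893, 0.809, 0.817, 0.518, 0.265 and 0.368, the lowest then being Fcgr4. The values of a tumour share its library and its content of tumour cells.

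The same markers were lower in part between baseline and vehicle in NSG tumours. Of the 10 markers, Adgre1 (-1.44), Csf1r (-0.94) and Mrc1 (-1.14) fell from baseline to vehicle, while Cd68 (0.24) did not pass. Among all tested genes 5.5% were called lower there, and without NSG_Baseline_303 0% were called. Relative to the marker mean, Fcgr3 was 0.87 higher with vehicle (SE 0.314, adjusted p = 0.0419) and Fcgr4 0.89 higher (SE 0.31, adjusted p = 0.0357), and the other 4 were not called, with 0.42 for Fcer1g, 0.22 for Fcgr2b, -0.060 for Fcgr1 and -0.064 for Fcgrt. In that fit 23.5% of genes were called, 4072 of them higher and 103 lower, and the median gene was at 0.552, so 2 of 6 members is near the background. The call of Fcgr3 was lost on leaving out any 1 of 8 of the 10 tumours, with adjusted p up to 0.101, and was kept only without NSG_Non-Treatment_302 or NSG_Non-Treatment_308. That of Fcgr4 was lost without NSG_Baseline_303, NSG_Baseline_305, NSG_Baseline_316, NSG_Baseline_320, NSG_Non-Treatment_311 or NSG_Non-Treatment_323, with adjusted p up to 0.0953. Relative to the markers 0 of 6 were called for entinostat over vehicle (0% of genes called, 3528 at an unadjusted p under 0.05) or over baseline (0.547%), and Fcgr3 over vehicle had -0.73 (adjusted p = 0.249).

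Neutrophil markers moved in the same NSG comparison, where 7.53% of all tested genes were called higher and 5.5% lower. Without NSG_Baseline_303 that comparison called 0% of genes, so none of its calls held without that tumour. Whether the size of the marker changes depends on it was not tested. Of 8 tested, 5 rose from baseline to vehicle, with a median of 1.62: S100a8 (1.75), S100a9 (1.49), Retnlg (3.48), Mmp8 (2.02) and Ngp (2.65). Their summed counts were 20360 to 36330 at baseline, 26840 to 101900 with vehicle and 43690 to 120100 with entinostat. Neutrophils carry Fcgr3 and Fcgr4. In the same comparison 6 of 8 dendritic cell markers fell (sums 3252 to 4669 at baseline and 572.5 to 2439 with vehicle), as did 4 of 7 endothelial markers (3389 to 4360 and 1788 to 3533) and 2 of 9 mast cell and basophil markers (1278 to 2502 and 409.8 to 1489). Fcgrt, also made by endothelium, had the -0.66 given above. The part of these cells in the members' values was not tested. In B6 entinostat against vehicle 5 of 9 neutrophil markers rose, with a median of 1.87, and their summed counts were 7598 to 26550 against 1241 to 7046.

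**Figure D4:**
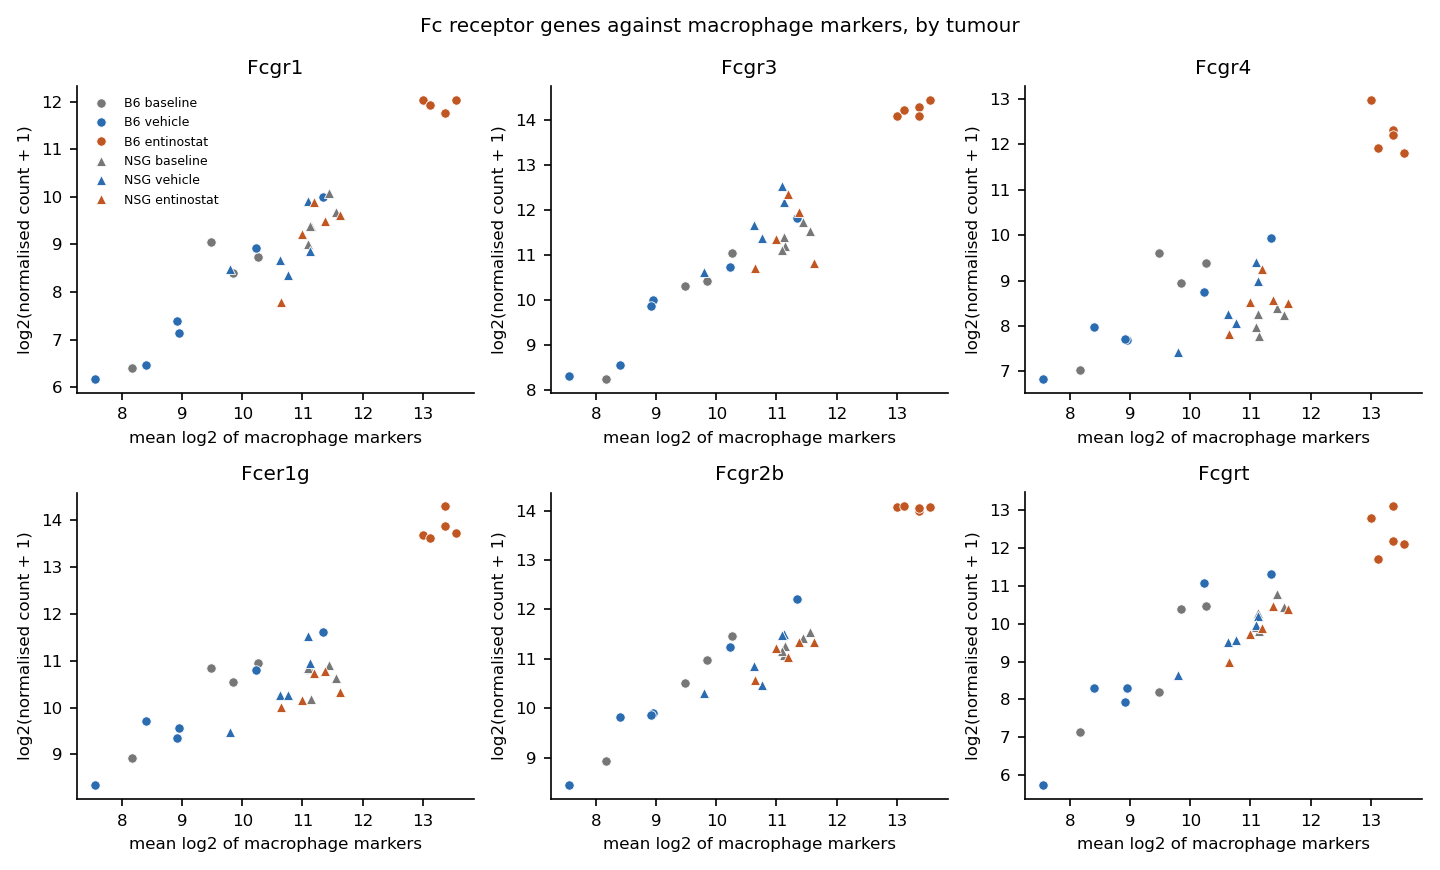
Log2 normalised count of each gene against the mean log2 of 10 macrophage and monocyte markers, 1 symbol per tumour, circles for B6 and triangles for NSG mice, coloured by group. B6 tumours lie along 1 line from vehicle and baseline to entinostat, while Fcgr3 and Fcgr4 in NSG tumours scatter at a like marker level; the 2 hosts were normalized separately, so only the spread within a host can be read.

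Markers of the other cells that could hold these receptors are given in the same comparison of B6 entinostat with vehicle, and their part in the result was not tested. Of 6 NK cell markers tested, Klrb1c (3.78), Klrd1 (2.26), Klrc1 (1.92) and Prf1 (1.59) rose and Gzma (-3.64) and Eomes (-2.56) fell, and the summed counts of the list of 8 were 573.4 to 1222 with entinostat and 534.8 to 1772 with vehicle. Of 4 B cell markers 3 rose, Cd22 by 4.83, and their sum over 7 genes was 606.4 to 2271 against 18.19 to 251.9. Of 8 mast cell and basophil markers 5 rose (sum over 9 genes 849.8 to 4898 against 301.2 to 1611), of 8 dendritic cell markers 6 rose (3923 to 20550 against 290.8 to 1733), and of 7 T cell markers 6 rose (1937 to 4718 against 507.5 to 1304).

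All 8 markers of endothelium, which also makes Fcgrt, rose with a median of 2.34, and their sums were 11700 to 18130 against 729.1 to 18590 with vehicle. Of 7 skeletal muscle markers 6 rose, with sums from 93.41 to 391300 among the 5 entinostat tumours against 5.229 to 39.51 with vehicle. The 7 epithelial markers of the tumour cells all fell, with a median of -5.99, and their summed counts were 1110 to 4584 with entinostat and 132000 to 598800 with vehicle. The labelled tumour line was thus present at a low marker level in the treated B6 libraries, and a smaller share of tumour cells and a change within cells cannot be told apart. In NSG entinostat tumours the epithelial sum was 114000 to 131400, beside 87870 to 191000 with vehicle.

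The signalling genes of the activating arm rose with the receptors. Of 23 tested in B6 entinostat against vehicle, 21 were higher, with a median of 3.17. Lat2, an adaptor, rose by 4.61 (adjusted p = 3.01e-07), Cybb, the catalytic subunit of the phagocyte oxidase, by 4.18 (adjusted p = 1.32e-06), Prkcd, a protein kinase C, by 1.69 (adjusted p = 5.77e-07) and Syk by 3.61 (SE 0.371, adjusted p = 2.06e-06). Syk averaged 567.5 ± 405.6 (SD, n = 6) normalized counts with vehicle and 5873 ± 1269 (SD, n = 5) with entinostat. Vav3 was the only member called lower (-1.0, adjusted p = 0.00344), and Plcg2 did not pass (-0.19, adjusted p = 0.487); both are named after their values were seen. In NSG hosts 0 of the 23 were called for entinostat over vehicle, and 6 fell from baseline to vehicle, where 5.5% of all tested genes were called lower. Without NSG_Baseline_303 that last comparison called 0% of genes.

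The inhibitory arm rose as well. Of 8 genes downstream of Fcgr2b, 7 were higher in B6 entinostat tumours, with a median of 1.75. Inpp5d, which encodes the SHIP1 phosphatase, rose by 3.08 (SE 0.468, adjusted p = 7.06e-05). It averaged 460 ± 348 (SD, n = 6) with vehicle and 3067 ± 414.1 (SD, n = 5) with entinostat. Ptpn6, the SHP-1 phosphatase, rose by 2.01 and Inppl1 by 1.41. Ptpn11 did not pass (-0.40, adjusted p = 0.109). In NSG hosts Inpp5d (-1.17) and Ptpn6 (-0.75) fell from baseline to vehicle, and 0 of the 8 were called for entinostat over vehicle. Neither call held without NSG_Baseline_303, where vehicle against baseline called 0% of genes. Whether the size of the 2 falls depends on that tumour was not tested.

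Lists of other adaptors and inhibitory receptors, headed ITAM and ITIM, went the same way in B6 hosts. Not every gene in them carries the motif of the heading, Hcst and Cd200r1 being exceptions. All 6 genes of the adaptor list rose, with Tyrobp, the DAP12 chain of myeloid cells, at 4.83 (adjusted p = 4.71e-06), Hcst at 3.37 and Cd79b, a B cell chain, at 3.89. All 12 genes of the list of inhibitory receptors of myeloid cells rose, with a median of 4.08, with the smallest p for Cd300a (5.56), Lair1 (3.98) and Lilrb4a (5.70). In NSG hosts 0 of 4 tested genes of the adaptor list and 0 of 12 of the inhibitory receptor list were called for entinostat over vehicle.

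Of 10 tested genes in the list of other immunoglobulin Fc receptors and Fc receptor-like genes, 4 rose and 3 fell in B6 entinostat against vehicle, shares near the background of 29.9% and 26.2%. The Fc receptor-like genes Fcrlb (4.04), Fcrl1 (2.85) and Fcrla (3.41) and Fcer1a, the IgE receptor chain of mast cells (2.21), rose. Fcamr, a receptor for IgA and IgM, was called lower: vehicle tumours held 5.145 to 100.1 normalized counts, and all 5 entinostat tumours were listed at 0. Pigr, the epithelial transporter of IgA (-5.23), and Fcmr (-2.22) fell as well. Trim21, a cytosolic antibody receptor, did not pass (-0.40, adjusted p = 0.104). In NSG hosts 0 of 9 tested were called for entinostat over vehicle.

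**Figure D5:**
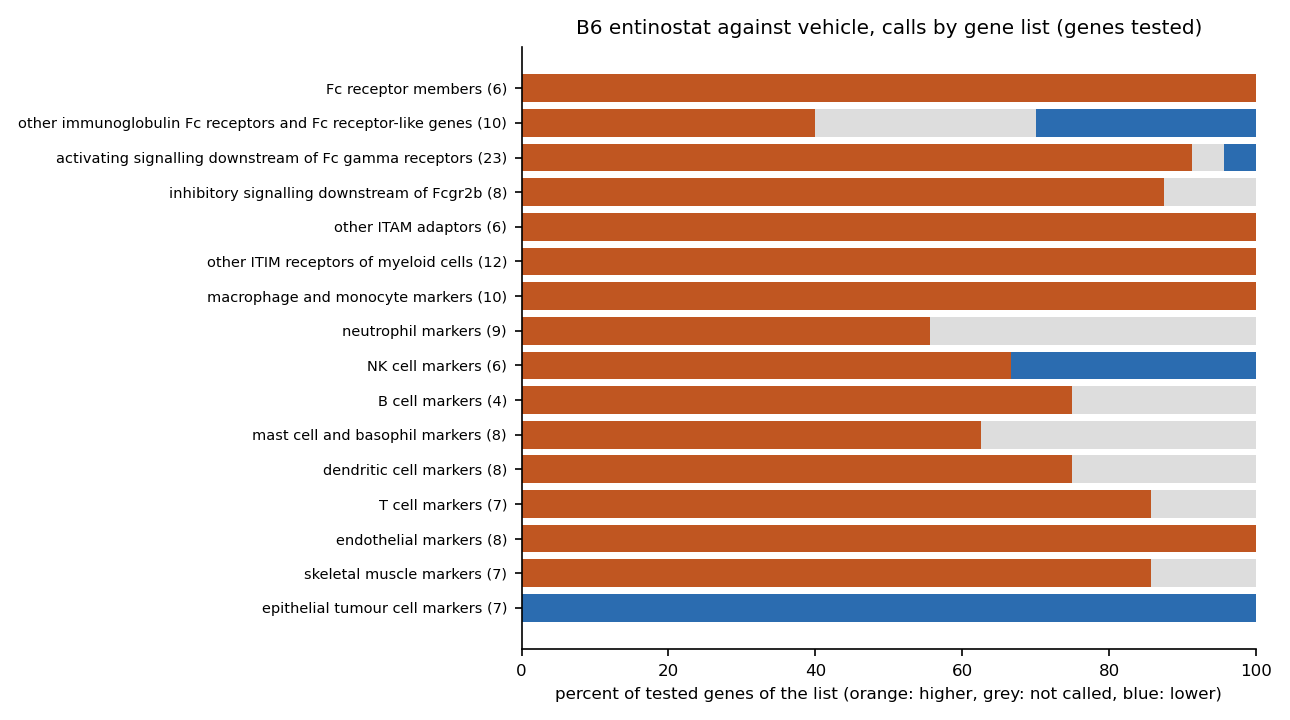
Share of the tested genes of each list called higher (orange), called lower (blue) or not called (grey) in B6 entinostat against vehicle, with the number tested in brackets. Lists of Fc receptor signalling and of macrophages are almost all higher and the 7 epithelial genes are all lower, beside 29.9% higher and 26.2% lower over all genes.

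The genes whose log2 values followed each member most closely over the 15 B6 tumours were taken by Pearson correlation, as a description. These tumours fall into an entinostat cluster and the rest, which alone gives high values. For Fcgr1 they were Lrrc25, Spi1 and Apbb1ip, for Fcgr3 Vsir, Ptafr and Spi1, for Fcgr4 Themis2, Ms4a7 and Pou2f2, for Fcer1g Pld4, AB124611 and C1qc, and for Fcgr2b Ms4a4d, Apba1 and Adgre1. Fcgrt had Galnt16, Sorbs3 and Gpx7. Spi1 was the only gene shared between members, by Fcgr1 and Fcgr3. The values ran from 0.986 to 0.997. Over the 15 NSG tumours the nearest genes were Ms4a6c for Fcgr1 (0.915), Srgn for Fcgr3 (0.947), Lgals8 for Fcgr4 (0.947), Trem1 for Fcer1g (0.940), Cybb for Fcgr2b (0.924) and Dpt for Fcgrt (0.940).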

How the data were processed

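RNA-seq of 30 tumours was used: 15 in each host. The values are signal per gene, deposited by the authors as DESeq2-normalized counts, 1 table per host normalized on its own; STAR, DESeq2 and mm10 are named per the submitters' processing notes, without versions, and a stranded mRNA kit per the labels' protocols. Whole reads could not be recovered, so log2(value + 1) was fitted with limma 3.58.1 (R 4.3.3; trend, robust), all 3 groups of a host together, on genes that reached 10 in 4 or more B6 or 5 or more NSG libraries, with Benjamini-Hochberg adjustment and a threshold of 0.05. Host differences came from 1 fit of both tables. Values relative to Fcgr2b or to 10 macrophage markers were fitted the same way, and exact permutation tests of 30 log2 ratios were added after seeing the data. The limma steps were tested on simulated data. Figures used Python 3.11.15 and matplotlib 3.10.9.

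The members and gene lists were chosen with earlier results of these data known. Named genes are the members, the 3 genes with the smallest p of each list in B6 entinostat against vehicle, a fixed few (Syk, Inpp5d, Tyrobp, B2m, Cd68, Csf1r, Adgre1) and 3 genes most correlated with each member among those averaging at least 50; others were named after their values were seen. Alternatives were another pseudocount, filter, scaling, variance model and set of groups, a shorter macrophage reference, and leaving out each library. T cell receptor values were not used here.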

Additional observations from a re-analysis of the deposited data

Results flagged for a closer look

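The response to entinostat differed between B6 and NSG hosts for all 6 genes in the test of the difference itself. The log2 differences, B6 minus NSG, were 3.88 for Fcgr1, 4.59 for Fcgr3, 3.98 for Fcgr4, 4.03 for Fcer1g, 3.62 for Fcgr2b and 3.29 for Fcgrt.

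A single tumour far from the rest of its group was found in 5 of 66 sets checked (6 genes and 5 log2 ratios to Fcgr2b in 6 groups), and chance gives about 1 in 20. The genes were checked as normalized counts and not on the log2 scale of the fits. On counts a single high value stands out more than on that scale. Fcgr4 was 982 in B6 vehicle tumour 402, and Fcgr1 was 964.3 in NSG_Non-Treatment_311. In B6 baseline tumour 419 the log2 ratio to Fcgr2b was -1.47 for Fcgr1 and -0.896 for Fcgr4, above the other 3 tumours. In NSG_Entinostat_319 the log2 ratio of Fcgr4 to Fcgr2b was -1.78.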

How the results depend on the processing

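The calls and directions of all 6 genes were the same in all 120 values of alternatives for B6 entinostat against vehicle, all 108 against baseline and all 174 of the host difference in response. Setting libraries to equal summed signal moved the median of all genes to -0.334 in B6 entinostat against vehicle and the split to 3846 higher and 6394 lower genes, from 5093 and 4460; in NSG vehicle against baseline it gave 612 and 2401, from 1336 and 976, and in the host difference 2881 and 5276, from 4344 and 3291. In B6 entinostat against baseline it gave 3699 and 6086, from 4965 and 4319, and in NSG entinostat against baseline 35 and 78, from 37 and 35.

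The percent of tested genes called moved as follows. B6 vehicle against baseline gave 0.00586% (1 gene) with quantile scaling and 0 to 0.0117% on leaving out a library. NSG entinostat against vehicle gave 0 to 0.00563% on leaving out a library. NSG entinostat against baseline, with 0.406%, gave 0.907% with a pseudocount of 5, 1.78% with quantile scaling, 0.637% with equal summed signal, 0.248% with plain empirical Bayes, 3.33% with only the 2 groups compared and 0 to 5.28% on leaving out a library, highest without NSG_Entinostat_327. NSG vehicle against baseline, with 13%, gave 4.75% with no filter and 0 to 18.5% on leaving out a library. Members called relative to the macrophage markers in NSG vehicle against baseline were 0 to 2, and for the host difference relative to Fcgr2b 0 to 1, on leaving out a library. The cause was not tested.

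Values that did not pass changed sign in some settings. Fcgr3 in NSG entinostat against baseline was -0.12 with equal summed signal and -0.19 to 0.23 on leaving out a library. On leaving out a library, B6 vehicle against baseline gave -0.71 to 0.22 for Fcgr3, -0.74 to 0.13 for Fcgr2b and -0.91 to 0.33 for Fcgrt; NSG entinostat against vehicle gave -0.14 to 0.35 for Fcgr4 and -0.35 to 0.17 for Fcer1g; NSG entinostat against baseline gave -0.48 to 0.045 for Fcgr1; and NSG vehicle against baseline gave -0.43 to 0.082 for Fcer1g. Relative to Fcgr2b, Fcgrt was -0.46 to 0.046 in B6 entinostat against vehicle, and in NSG entinostat against vehicle Fcgr1 was -0.030 to 0.38 and Fcgr4 -0.27 to 0.027. No paired analysis was possible because the groups compared share no tumour numbers. Depth in reads is unknown, so no counting error is given.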
